A study of Mus musculus with 27 samples.

Results

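The response of full-length NFIA-expressing C2C12 cells to forskolin was measured by RNA-seq in 6 of the 27 samples of the series, which are 3 samples at day 7 without forskolin and 3 samples at day 7 treated with 10 µM forskolin for 4 h. These samples were chosen by their labels alone, and all 24825 genes of the deposited tables were considered. C2C12 is an established line of mouse myoblasts, the precursors of muscle fibers. In the cells described here, NFIA, a transcription factor of the nuclear factor I family, was introduced by retrovirus, so that its expression is driven by the viral promoter and not by that of the endogenous gene. All cells had been confluent when adipocyte differentiation was induced with IBMX (0.5 mM), dexamethasone (1 µM), indomethacin (125 nM), insulin (850 nM), T3 (1 nM) and rosiglitazone (1 µM) for 48 h, followed by medium with insulin, T3 and rosiglitazone only. For comparison, the same treatment was available in control cells and in cells expressing the Δpro#3 mutant, which lacks a short proline-rich stretch at the C terminus of NFIA, again with 3 samples per group. The labels do not say whether the 3 samples of a group came from separate cultures, so p-values measure the spread between these samples. In the main fit this spread is pooled over all 18 samples at day 7 and so includes that of the other cell types.

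Forskolin activates adenylyl cyclases directly and thereby raises intracellular cyclic AMP (cAMP), as noradrenaline does through the β-adrenergic receptors of adipocytes. cAMP activates protein kinase A, which phosphorylates transcription factors of the CREB family at cAMP response elements and, in adipocytes, perilipin and hormone-sensitive lipase at the lipid droplet. In brown and beige adipocytes this pathway is known for releasing fatty acids from triglycerides and for inducing thermogenic genes such as Ucp1, Dio2 and Ppargc1a.

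The introduced gene was read to check the labels. Nfia had 457, 528 and 459.6 FPKM (fragments per kilobase of exon, relative to all mapped fragments of the library, the deposited unit) without forskolin and 497, 524 and 594 FPKM after it, against at most 0.253 FPKM in any control sample, and its change with forskolin did not pass the test as deposited (adjusted p = 0.224), although it did with scaling between samples (log2 fold change 0.30, adjusted p = 0.0324). The 6 samples held 9567769 to 20598872 fragments. Replicates differed by more than counting noise, with a chi-squared value per gene of 3.13 to 15 over the 6 pairs within a group (close to 1 if counting were the only difference), and the largest values were those of forskolin replicate 1. The cells carried the markers of adipocytes. Of the 49 common adipocyte genes, Fabp4 alone had 10224 to 12147 FPKM in the 6 samples. All 49 summed to 19143 to 20900 FPKM without forskolin and to 18272 to 19412 FPKM after it, against 1146.6 to 1188.7 FPKM in untreated control cells. Transcripts of muscle remained beside them, as 68 skeletal muscle genes summed to 4385.6 to 5982.9 FPKM without and 3696.4 to 4380.1 FPKM with forskolin, against 31671 to 37229 FPKM in untreated control cells. The 12 blood cell markers summed to 14.7 to 16.7 FPKM without and 16.6 to 19.4 FPKM with forskolin, with Cd68 (at most 10.9 FPKM) and Cd14 (at most 5.98 FPKM), while Ptprc was listed at 0 in all 6 samples and Adgre1 had at most 0.0322 FPKM. The 11 endothelial markers summed to 0.413 to 0.718 FPKM without and 1.35 to 1.48 FPKM with forskolin, with Kdr at most 0.269 and 1.29 FPKM and Cdh5 at most 0.0244 FPKM. The brown adipocyte marker Ucp1 was listed at 0 in the untreated cells and is described below with its values after forskolin. In a bulk sample, fewer cells of a type and less RNA per cell cannot be told apart. Among the samples used only for comparison, untreated Δpro#3 replicate 1 stood apart, with a sum of 3445.1 FPKM of the adipocyte genes against 1349.5 and 1480 FPKM in the others.

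Forskolin changed many genes a little and few genes a lot. Over the 12245 genes with a mean of 0.5 FPKM or more, 1698 genes (13.9%) rose and 5087 genes (41.5%) fell at an adjusted p-value under 0.05 (limma on log2(FPKM + 1) with Benjamini-Hochberg adjustment, which is the rule for the words rose and fell in the text). The remaining genes of the tables were below this level and were not tested. Over 2-fold, 199 genes (1.63%) were higher and 194 genes (1.58%) lower. Over 3-fold in FPKM + 1, 73 genes (0.596%) were higher and 18 genes (0.147%) lower. Of the 73 genes, 22 had less than 1 FPKM without forskolin and 5 had 100 FPKM or more. The 3 samples of each group were apart for all 73 and all 18 genes, which on its own was common, since the treated samples lay entirely above the untreated ones for 15% and entirely below them for 44.1% of the genes tested. At the edge of the 3-fold threshold, Dusp4 (log2 fold change 1.59) was inside and Plaur (1.58) outside, and Lfng (-1.60) was inside and Lasp1 (-1.58) outside.

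The small falls depend on how the samples are scaled. The median log2 fold change of all genes tested was -0.15 as deposited and -0.04 when samples were scaled to each other by the median ratio of their genes, which gave 2737 higher and 3491 lower genes at the same adjusted p-value. Higher genes were then 43.9% of those past it, against 25% as deposited. Groups of genes are therefore given with their median beside -0.15, the median of all genes, and their counts stand against the 13.9% that rose and the 41.5% that fell among all genes. Log2 fold changes are on the FPKM + 1 scale throughout, which understates the change of genes with few FPKM.

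**Figure D1:**
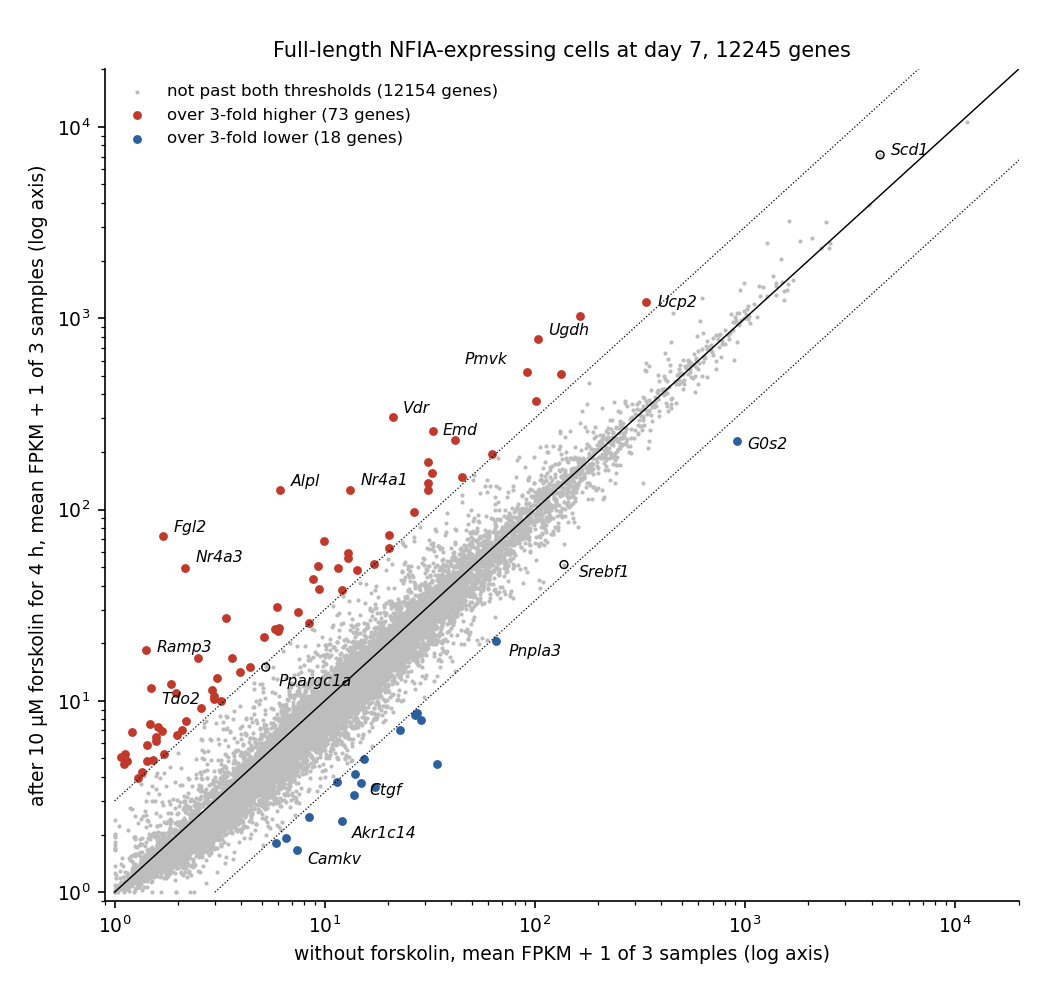
Each point is a gene tested, with its mean FPKM + 1 of the 3 untreated samples on the horizontal and of the 3 forskolin-treated samples on the vertical axis, both logarithmic. Red and blue points are the 73 genes over 3-fold higher and the 18 genes over 3-fold lower at an adjusted p-value under 0.05, the solid line marks equal values, the dotted lines mark 3-fold, and open circles mark labelled genes within 3-fold. The genes over 3-fold higher spread from below 1 FPKM without forskolin (Fgl2, Ramp3) to 338 FPKM (Ucp2), and G0s2 is the most abundant gene among those over 3-fold lower.

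The 3 orphan nuclear receptors of the NR4A family, immediate early genes of the cAMP pathway that act as transcription factors without a known ligand, were all among the largest rises. Nr4a3 (chromosome 4 from 48058025 to 48099319 of mouse build NCBIM37 (mm9), plus strand) had 1.31, 1.18 and 1.02 FPKM without and 47.5, 46.5 and 51.1 FPKM with forskolin. Its lowest treated sample was 35.6 times its highest untreated sample (log2 fold change 4.51, SE 0.10, adjusted p = 4.18e-15). Nr4a1 (chromosome 15 from 101097277 to 101105223, plus strand) had 12.2, 12.3 and 12.1 FPKM without and 138, 120.5 and 121 FPKM with forskolin, again with no overlap (log2 fold change 3.27, SE 0.09, adjusted p = 7.5e-14). Nr4a2 (chromosome 2 from 56959241 to 56976414, minus strand) was the least abundant of the family, with 0.968, 0.783 and 0.811 FPKM without and 11.5, 10.1 and 12.2 FPKM with forskolin (log2 fold change 2.72, SE 0.11, adjusted p = 1.12e-11).

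The promoters of these receptors, 250 bases before to 50 bases after the start of the RefSeq transcript (assembly GRCm38.p6, not the mm9 build of the expression tables), are printed because cAMP response elements are the site through which CREB acts on its targets, and those of Dio2 and Has1, described further below, because they hold the full element. The full element was searched as TGACGTCA and its short form as TGACG or CGTCA, which covers both strands, and letters of a match are in capitals. Nr4a1 (chr15:101266596-101266895, plus strand), Nr4a2 (chr2:57123954-57124253, minus strand) and Nr4a3 (chr4:48045055-48045354, plus strand) held 4 short forms each and no full element. Dio2 (chr12:90738989-90739288, minus strand) and Has1 (chr17:17855139-17855438, minus strand) held 1 full element each, which contains the short form of both strands in overlap. The genes shown were picked after their values were seen. Of other genes over 3-fold higher, Fgl2, Vdr, Ramp3, Slpi, Emd, Tdo2, Ugdh, Gfpt2 and Pmvk held neither form in their windows and are not printed. A full element was also found in a window of Slc25a25, Gm16062 and Tubb2a, which are not printed either.
Nr4a1: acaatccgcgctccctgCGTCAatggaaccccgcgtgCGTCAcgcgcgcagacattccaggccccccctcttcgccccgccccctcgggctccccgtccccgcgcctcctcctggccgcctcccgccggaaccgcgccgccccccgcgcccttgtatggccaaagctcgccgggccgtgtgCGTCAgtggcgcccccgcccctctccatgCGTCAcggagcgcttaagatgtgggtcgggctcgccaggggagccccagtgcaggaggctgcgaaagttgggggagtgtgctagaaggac
Nr4a2: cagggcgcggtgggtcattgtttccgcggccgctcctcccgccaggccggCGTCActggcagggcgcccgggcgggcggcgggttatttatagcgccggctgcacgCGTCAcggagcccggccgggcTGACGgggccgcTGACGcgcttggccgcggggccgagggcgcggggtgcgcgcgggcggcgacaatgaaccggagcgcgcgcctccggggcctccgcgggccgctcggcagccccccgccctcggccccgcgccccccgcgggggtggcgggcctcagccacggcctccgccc
Nr4a3: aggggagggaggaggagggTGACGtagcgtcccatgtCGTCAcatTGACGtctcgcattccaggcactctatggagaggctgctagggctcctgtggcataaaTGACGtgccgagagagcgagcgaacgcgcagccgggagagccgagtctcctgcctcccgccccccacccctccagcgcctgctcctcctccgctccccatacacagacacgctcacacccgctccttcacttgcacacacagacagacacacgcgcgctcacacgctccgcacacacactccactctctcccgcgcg
Dio2: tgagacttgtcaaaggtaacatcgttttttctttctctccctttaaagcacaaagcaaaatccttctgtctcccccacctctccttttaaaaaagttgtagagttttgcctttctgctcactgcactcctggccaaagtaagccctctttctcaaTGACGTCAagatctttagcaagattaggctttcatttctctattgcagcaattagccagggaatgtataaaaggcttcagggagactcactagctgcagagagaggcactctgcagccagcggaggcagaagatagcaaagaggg
Has1: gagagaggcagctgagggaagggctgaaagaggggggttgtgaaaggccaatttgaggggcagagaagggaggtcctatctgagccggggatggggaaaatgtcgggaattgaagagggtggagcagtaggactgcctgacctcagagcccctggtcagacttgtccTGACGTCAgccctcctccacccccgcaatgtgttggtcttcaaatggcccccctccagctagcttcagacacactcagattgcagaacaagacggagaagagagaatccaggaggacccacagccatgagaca

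For scale, 1.79% of all 32851 RefSeq promoter windows of this length held the full element and 20.8% at least 1 short form. The shares were higher among genes tested here, as 3.69% and 35.9% of the 9619 genes that were matched to a window, out of 12245, held these in any of their windows. A match is a description of the letters and not a bound site. No share is given for the responding genes, since only 50 of the 73 genes over 3-fold higher were matched to a promoter window.

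Most other early response genes of the cAMP pathway rose too. Of 51 such genes written down as a list, 49 were tested, of which 37 rose and 3 fell (Id1, Mc2r and Crtc2; against 13.9% and 41.5% of all genes), with a median log2 fold change of 0.96 beside -0.15. Over 2-fold, 23 of the 49 were higher and none lower, against 1.63% and 1.58% of all genes. The transcription factors of the AP-1 and ATF group were led by Fosl1, a Fos-related partner of Jun proteins, which had 12.3, 9.25 and 14.1 FPKM without and 64.9, 51.5 and 57.5 FPKM with forskolin (log2 fold change 2.21, SE 0.12, adjusted p = 6.09e-10). Atf3, a repressor of the ATF/CREB family, had 31.0, 29.9 and 28.8 FPKM without and 135, 124 and 119 FPKM with forskolin (log2 fold change 2.04, SE 0.11, adjusted p = 3.23e-10). Treated and untreated samples did not overlap for either gene. Fos (2.16 ± 0.246 to 7.37 ± 0.255 FPKM as means ± SD, n = 3, log2 fold change 1.41), Fosl2 (31.0 ± 0.639 to 64.9 ± 4.14 FPKM, 1.04) and Junb (22.4 ± 3.46 to 46.1 ± 5.91 FPKM, 1.01) rose less at this time.

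Among genes known to dampen the pathway, some rose and others fell. Crem, whose inducible short products compete with CREB, went from 1.65 ± 0.226 to 6.62 ± 0.0948 FPKM (log2 fold change 1.53, SE 0.08, adjusted p = 4.13e-10). Sik1, a salt-inducible kinase that restrains the CREB coactivators, went from 6.47 ± 0.707 to 28.1 ± 1.22 FPKM (log2 fold change 1.96, SE 0.08, adjusted p = 8.63e-12). Pde4b, a phosphodiesterase that degrades cAMP, had 2.42, 2.82 and 2.61 FPKM without and 14.4, 15.9 and 16.7 FPKM with forskolin (log2 fold change 2.20, SE 0.07, adjusted p = 9.55e-13), which left no overlap. Pde4d (3.70 ± 0.368 to 8.99 ± 0.134 FPKM, log2 fold change 1.09) and Pde3b (24.0 ± 1.16 to 47.8 ± 4.84 FPKM, 0.96) rose too. Of 13 cyclic nucleotide phosphodiesterases tested, 6 rose and 5 fell (Pde1b, Pde2a, Pde4a, Pde6d and Pde7a), with a median of 0.17, and 8 rose and 4 fell with scaling between samples. The phosphatases Dusp1 (16.5 ± 0.697 to 49.8 ± 1.87 FPKM, 1.54) and Dusp4 (16.1 ± 0.634 to 50.6 ± 2.35 FPKM, 1.59), which switch off MAP kinases, rose about as much as Crem on the FPKM + 1 scale, which understates the change of Crem. Within protein kinase A itself, the regulatory subunit Prkar1a rose (92.1 ± 2.4 to 143 ± 3.07 FPKM, 0.63) and the catalytic subunit Prkaca fell (104 ± 5.48 to 71.3 ± 2.21 FPKM, -0.53).

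The largest rise of all belonged to Fgl2 (chromosome 5 from 20878460 to 20884192, plus strand), a fibrinogen-like protein that is secreted or bound to the cell surface. Fgl2 had 0.610, 0.811 and 0.674 FPKM without and 66.5, 67.0 and 80.8 FPKM with forskolin, based on 114 fragments in the 3 untreated and 12734 fragments in the 3 treated samples (log2 fold change 5.41, SE 0.16, adjusted p = 2e-13). Alpl, the tissue-nonspecific alkaline phosphatase (chromosome 4 from 137297648 to 137352299, minus strand), had 4.54, 5.07 and 5.79 FPKM without and 128, 128 and 119.9 FPKM with forskolin (log2 fold change 4.37, SE 0.10, adjusted p = 1.05e-14). The vitamin D receptor gene Vdr (chromosome 15 from 97684856 to 97741061, minus strand) had 17.2, 22.2 and 20.8 FPKM without and 304, 298 and 304 FPKM with forskolin (log2 fold change 3.85, SE 0.08, adjusted p = 1.99e-15). The lowest treated sample was 82.0 times the highest untreated sample for Fgl2, 20.7 times for Alpl and 13.4 times for Vdr.

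Ramp3, which escorts the calcitonin receptor-like receptor to the membrane, was under 1 FPKM in the mean before treatment, with 0.685, 0.119 and 0.430 FPKM without and 19.3, 14.7 and 18.6 FPKM with forskolin (log2 fold change 3.73, SE 0.16, adjusted p = 3.09e-11). Tdo2, the tryptophan-degrading dioxygenase, had 0.512, 0.654 and 0.322 FPKM without and 9.85, 12.1 and 10.2 FPKM with forskolin, and no test is given, as the treated samples alone brought it over the filter. Slpi, a secreted inhibitor of leukocyte proteases, had 2.86, 1.72 and 2.60 FPKM without and 29.3, 23.5 and 25.7 FPKM with forskolin (log2 fold change 3.01, SE 0.16, adjusted p = 4.5e-10). These 3 genes had less than 3 FPKM in the mean without forskolin and did not overlap between the groups.

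Among genes that were already well expressed, Emd, which encodes the inner nuclear membrane protein emerin, had 32.1, 31.5 and 31.1 FPKM without and 268, 245 and 255 FPKM with forskolin (log2 fold change 2.98, SE 0.06, adjusted p = 1.95e-15). Slc25a25, the mitochondrial carrier that exchanges ATP-magnesium for phosphate, went from 8.88 ± 0.149 to 67.9 ± 3.33 FPKM (log2 fold change 2.8, SE 0.09, adjusted p = 8.83e-13). The tubulin genes Tubb2a (163 ± 10.6 to 1030.4 ± 71.1 FPKM, log2 fold change 2.65) and Tuba1c (44.1 ± 0.744 to 146 ± 6.27 FPKM, 1.71) rose as well, with the reserve that tubulin genes have near-identical copies and only uniquely mapped reads were counted. The uncharacterized gene Gm16062 went from 1.5 ± 0.447 to 15.7 ± 2.77 FPKM (2.74). By the gain in FPKM, the largest rises among the genes over 3-fold higher were those of Ucp2, Tubb2a, Ugdh, Pmvk and Dgat1, of which the metabolic members are described with their pathways.

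**Figure D2:**
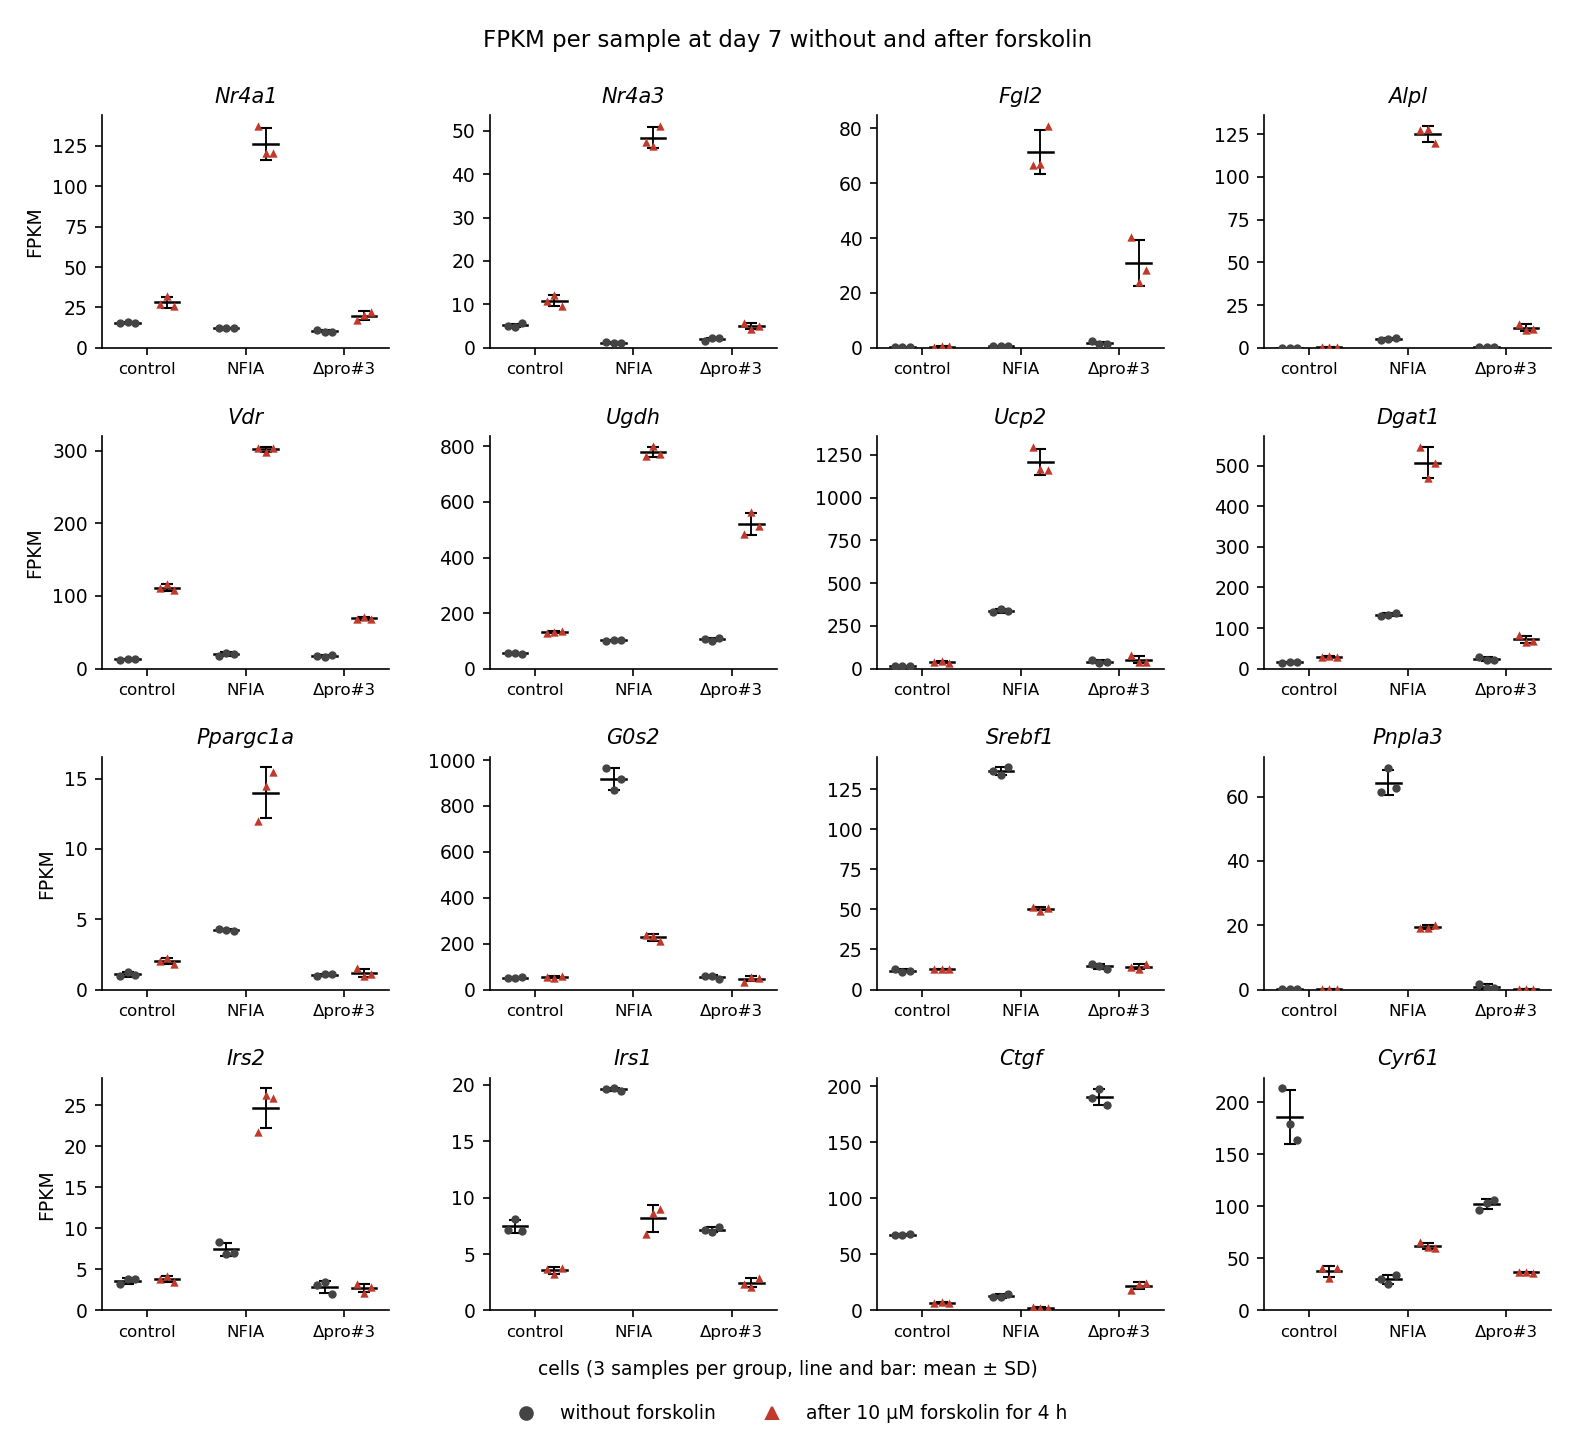
FPKM of 16 genes in each of the 18 samples at day 7, by cell type (control, full-length NFIA, Δpro#3 mutant), with circles for samples without forskolin and triangles for samples after 10 µM forskolin for 4 h. Lines and bars are the mean ± SD of 3 samples, and every vertical axis starts at 0. The treated and untreated samples of NFIA-expressing cells are apart in every panel, with Nr4a3, Fgl2, Alpl and Vdr rising from near the axis and G0s2, Srebf1, Pnpla3, Irs1 and Ctgf falling.

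The next genes act in the making of UDP-sugars or on hyaluronan, and Ugdh, Gfpt2 and Uap1 of them were put side by side after their values were seen. UDP-glucose dehydrogenase Ugdh makes UDP-glucuronic acid and had 99.98, 102 and 104 FPKM without and 767, 799.9 and 774 FPKM with forskolin (log2 fold change 2.92, SE 0.06, adjusted p = 1.95e-15), with its lowest treated sample 7.38 times its highest untreated sample. Gfpt2 catalyses the entry step of the hexosamine pathway and had 27.4, 33.1 and 29.4 FPKM without and 174, 177 and 178 FPKM with forskolin (log2 fold change 2.52, SE 0.09, adjusted p = 1.44e-12), whereas its paralog Gfpt1 had 13.7 ± 0.878 to 15.2 ± 2.03 FPKM with no change past the test (adjusted p = 0.164, but 0.00426 without forskolin replicate 1 and 0.00824 with scaling between samples). Uap1, which completes UDP-N-acetylglucosamine, had 38, 42.8 and 41.1 FPKM without and 241, 217 and 233 FPKM with forskolin (log2 fold change 2.47, SE 0.06, adjusted p = 1.62e-14). UDP-glucuronic acid and UDP-N-acetylglucosamine are the building blocks of hyaluronan. The hyaluronan synthase Has1, whose promoter is printed above, had 4.25, 5.45 and 5.27 FPKM without and 25.3, 20.3 and 21.1 FPKM with forskolin (log2 fold change 1.95, SE 0.11, adjusted p = 7.88e-10), and Has2 rose from 4.91 ± 0.293 to 7.55 ± 0.621 FPKM (log2 fold change 0.53). Versican (Vcan), a proteoglycan that binds hyaluronan, rose from 43.8 ± 3.92 to 118 ± 15.7 FPKM (1.41), and its proteases Adamts1 (22.5 ± 0.971 to 65.2 ± 3.08 FPKM, 1.49) and Adamts4 (1.74 ± 0.201 to 6.87 ± 0.657 FPKM, 1.52) rose too, while Adamts5 fell (12.6 ± 0.601 to 5.35 ± 0.765 FPKM, -1.10). Gfpt1, Hilpda and Tuba1c were named after their values were seen too. Of the whole list of 54 extracellular matrix genes tested, 10 rose and 23 fell (13 and 16 with scaling between samples), with a median of -0.16, which is that of all genes.

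The thermogenic genes split. Ucp1, the uncoupling protein of brown fat, was under the filter of 0.5 FPKM and was not tested across genes. It was listed at 0 in all 3 untreated samples and had 1.036, 1.217 and 0.9996 FPKM after forskolin, with 0 against 85 fragments. Relative to a floor of 3 fragments over the untreated group, this was at least 24.9-fold higher, and the exact permutation test of 3 against 3 samples gave p = 0.1 (2-sided), the smallest value it can give. No fragment of Ucp1 was counted in the 6 control samples and the 3 untreated Δpro#3 samples, and the treated Δpro#3 samples had 0.4523, 0.3974 and 0.1916 FPKM. Ppargc1a, the coactivator PGC-1α that drives mitochondrial genes, had 4.30, 4.25 and 4.16 FPKM without and 12, 14.5 and 15.5 FPKM with forskolin (log2 fold change 1.51, SE 0.10, adjusted p = 4.23e-09). Dio2, the deiodinase that activates thyroid hormone, had 9.57, 13.1 and 10.7 FPKM without and 35.3, 39.5 and 36.4 FPKM with forskolin (log2 fold change 1.66, SE 0.10, adjusted p = 1.21e-09). For both genes every treated sample was above every untreated sample.

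Ucp2, an uncoupling protein homolog of the inner mitochondrial membrane that is not specific to brown fat, gained more FPKM than any other gene over 3-fold higher, with 328, 350.2 and 337 FPKM without and 1296, 1166 and 1164 FPKM with forskolin (log2 fold change 1.83, SE 0.19, adjusted p = 7.25e-07). Fgf21, a hormone secreted by thermogenic adipocytes, rose from 114 ± 8.75 to 199 ± 11.7 FPKM (log2 fold change 0.80), and Pdk4, which spares glucose by inhibiting pyruvate dehydrogenase, rose from 73.7 ± 5.36 to 123 ± 14.7 FPKM (0.73). Other brown-fat genes fell, namely Plin5 (10.4 ± 0.535 to 6.22 ± 0.668 FPKM, -0.66), Tbx1 (5.83 ± 0.795 to 2.77 ± 0.449 FPKM, -0.86) and the creatine kinase Ckb (17.2 ± 1.33 to 10.1 ± 2.05 FPKM, -0.73). Cidea (27.2 ± 3.46 to 24.9 ± 2.39 FPKM, adjusted p = 0.295), Cox8b (315 ± 7.75 to 271 ± 35.1 FPKM, adjusted p = 0.148) and Ucp3 (20.2 ± 1.11 to 15.7 ± 0.559 FPKM, adjusted p = 0.186) did not pass the test. Of 42 thermogenic genes, 23 were tested, of which 8 rose and 9 fell (8 and 6 with scaling between samples), and their median of -0.12 was close to that of all genes. In a fit of the 6 NFIA-expressing samples alone, Ucp3 passed the test (adjusted p = 0.00243). Plin5 did not pass it with a pseudocount of 0.1 (adjusted p = 0.137).

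Common adipocyte genes had a lower median than genes in general. Of 43 tested, 4 rose (Lpl, Plin2, Pck1 and Cd24a) and 18 fell, with a median of -0.35 beside -0.15. Lpl, the lipoprotein lipase, had a log2 fold change of 0.57, and the lipid droplet protein Plin2 one of 0.63. The counts were 4 and 14 with scaling between samples, and 4 and 28 in a fit of the 6 NFIA-expressing samples alone, which leaves out untreated Δpro#3 replicate 1 and its higher adipocyte transcripts, and in which 1511 of all 12245 genes rose and 4623 fell. Pparg, the master regulator of adipogenesis, had 40.4, 40.4 and 37.8 FPKM without and 35.6, 33.5 and 35.9 FPKM with forskolin, just short of the threshold (adjusted p = 0.0533, but 0.0308 in the fit of the 6 samples). Its target Fabp4, the fatty acid-binding protein, had 11235, 12147 and 10778 FPKM without and 10850.0, 10224 and 10773 FPKM with forskolin (adjusted p = 0.867). Cebpa, the partner of PPARγ, fell with no overlap from 89.0 ± 3.75 to 48.3 ± 0.762 FPKM (log2 fold change -0.87, SE 0.13, adjusted p = 3.16e-05), and Aoc3, an amine oxidase of the adipocyte surface, fell from 75 ± 1.23 to 34.2 ± 2.19 FPKM (log2 fold change -1.11). Pck1, the gluconeogenic and glyceroneogenic enzyme, rose from 60.4 ± 2.5 to 131 ± 6.70 FPKM (1.10, adjusted p = 0.000276, but 0.0933 with a pseudocount of 0.1), as did Cd24a, a surface glycoprotein of progenitors (25.6 ± 2.35 to 71.0 ± 5.10 FPKM, 1.44). Among other adipogenic factors, Cebpb rose (24.4 ± 4.01 to 46.6 ± 4.18 FPKM, 0.91) and Klf4 rose (32.2 ± 1.12 to 59.8 ± 1.15 FPKM, 0.87), while Klf15 (6.58 ± 0.643 to 2.27 ± 0.0881 FPKM, -1.21), Stat5a (33.9 ± 0.921 to 15.6 ± 0.348 FPKM, -1.08) and Ebf1 (14.2 ± 0.403 to 8.41 ± 0.212 FPKM, -0.69) fell. Of 40 such factors tested, 10 rose and 21 fell, with a median of -0.31.

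The nuclear factor I relatives of the introduced gene fell, although Nfia itself did not change past the test. Nfix had 55.4, 53.8 and 50.9 FPKM without and 17.7, 19.0 and 20.02 FPKM with forskolin (log2 fold change -1.45, SE 0.07, adjusted p = 2.25e-10). Nfic had 51.8, 42.9 and 46.7 FPKM without and 19.6, 22.0 and 18.7 FPKM with forskolin (log2 fold change -1.19, SE 0.10, adjusted p = 3.85e-08). Treated samples of both genes were under the lowest untreated sample by a wide margin, and Nfib was lower as well, with 6.40 ± 0.0936 to 3.94 ± 0.383 FPKM (log2 fold change -0.59, SE 0.07, adjusted p = 1.45e-06).

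At the lipid droplet, the largest loss of FPKM among the genes over 3-fold lower was that of G0s2 (chromosome 1 from 195098355 to 195099382, minus strand), the inhibitor of adipose triglyceride lipase. G0s2 had 966, 869 and 919 FPKM without and 237, 232 and 212 FPKM with forskolin (log2 fold change -2.01, SE 0.13, adjusted p = 4.63e-09), with the highest treated sample far below the lowest untreated one. The lipase itself, Pnpla2, had 469 ± 10.8 to 359 ± 20.7 FPKM without a change past the test (adjusted p = 0.0911, but 0.00182 in the fit of the 6 NFIA-expressing samples alone). Hormone-sensitive lipase Lipe (93.9 ± 1.49 to 59.9 ± 0.777 FPKM, adjusted p = 0.022), monoglyceride lipase Mgll (77.8 ± 3.50 to 51.1 ± 3.63 FPKM, adjusted p = 0.0124) and perilipin Plin1 (344 ± 22.1 to 207 ± 2.84 FPKM, adjusted p = 0.0447) fell. These 3 calls were lost with scaling between samples (adjusted p of 0.0707 for Lipe, 0.0513 for Mgll and 0.107 for Plin1). That of Plin1 was also lost without any single one of the 6 samples (0.0687 to 0.107), and that of Lipe without untreated replicate 3 (0.0532), forskolin replicate 2 (0.0513) or forskolin replicate 3 (0.0507). These fits kept the samples of the other cell types. All 3 calls held in the fit of the 6 NFIA-expressing samples alone. The hypoxia-induced Hilpda, another protein inhibitor of adipose triglyceride lipase, rose from 25.6 ± 0.738 to 95.9 ± 6.67 FPKM (log2 fold change 1.86, SE 0.10, adjusted p = 5.39e-10). Of 32 β-adrenergic, protein kinase A and lipolysis genes tested, 5 rose (Prkar1a, Gnai3, Adcy6 and Creb1 among them) and 20 fell as deposited, 5 rose and 9 fell with scaling between samples, and 4 rose and 18 fell in the fit of the 6 samples. Their median was -0.26.

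Fatty acid synthesis and triglyceride assembly moved gene by gene. Srebf1, the sterol regulatory factor of lipogenesis, had 136, 134 and 139 FPKM without and 51.7, 49.4 and 50.6 FPKM with forskolin (log2 fold change -1.41, SE 0.07, adjusted p = 3.04e-10), and fatty acid synthase Fasn had 315, 329 and 329 FPKM without and 126, 139 and 145 FPKM with forskolin (log2 fold change -1.24, SE 0.15, adjusted p = 4.99e-06). Neither gene had overlapping samples. Acetyl-CoA carboxylase Acaca fell (32.4 ± 1.01 to 20.9 ± 2.49 FPKM, log2 fold change -0.61), as did the lipogenic protein Thrsp (35.6 ± 4.12 to 19.6 ± 1.44 FPKM, -0.82) and, by over 3-fold, the lipid droplet protein Pnpla3 (61.6, 68.9 and 62.8 FPKM without and 19.1, 19.2 and 20.2 FPKM with forskolin, log2 fold change -1.67, SE 0.18, adjusted p = 1.04e-06). In contrast, the desaturase Scd1, which was the most abundant transcript named here after Fabp4, rose from 4392 ± 299.9 to 7138 ± 637 FPKM (log2 fold change 0.70, SE 0.15, adjusted p = 0.000738). Acsl4, an acyl-CoA synthetase that prefers arachidonic acid, rose from 19.3 ± 0.391 to 72.3 ± 8.48 FPKM (log2 fold change 1.85, SE 0.12, adjusted p = 2.15e-09). Of 23 lipogenesis genes tested, 6 rose and 8 fell (median -0.21), and 5 rose and 12 fell in the fit of the 6 NFIA-expressing samples alone. The enzymes Dgat1 and Dgat2 of the last step of triglyceride synthesis went opposite ways. Dgat1 had 129, 132 and 136 FPKM without and 546, 471 and 506 FPKM with forskolin (log2 fold change 1.93, SE 0.10, adjusted p = 2.06e-10), and Dgat2 had 352, 362 and 329 FPKM without and 227, 229 and 228 FPKM with forskolin (log2 fold change -0.61, SE 0.14, adjusted p = 0.00174). Dgat1 passed Dgat2 in mean FPKM after forskolin, having been lower before. Of the 22 triglyceride synthesis genes tested, 6 rose and 6 fell (8 and 4 with scaling between samples), with a median of -0.05.

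Cholesterol synthesis genes rose more than genes in general. Of 29 synthesis and uptake genes tested, 15 rose and 4 fell (Dhcr7, Abca1, Abcg1 and Scarb1), with a median of 0.38 beside -0.15. Phosphomevalonate kinase Pmvk (chromosome 3 from 89263040 to 89272935, plus strand) was the largest, with 89.1, 90.4 and 92.3 FPKM without and 572, 477 and 513 FPKM with forskolin (log2 fold change 2.51, SE 0.08, adjusted p = 2.75e-13), and other members rose less, with the isomerase Idi1 at 5.36 ± 0.272 to 17.2 ± 4.02 FPKM (log2 fold change 1.49) and the squalene epoxidase Sqle at 53.6 ± 1.86 to 121 ± 6.36 FPKM (1.16). The enzymes directly before and after Pmvk did not pass the test, with log2 fold changes of 0.01 for Mvk (adjusted p = 0.926) and 0.10 for Mvd (adjusted p = 0.209). The reductase Dhcr7 of the last step fell (19.0 ± 0.854 to 10.9 ± 0.495 FPKM, -0.75), and so did the cholesterol exporter Abca1 (22.0 ± 1.51 to 12.1 ± 3.00 FPKM, -0.84).

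In insulin signaling, the paralogous adaptors Irs1 and Irs2 went opposite ways. Irs2, a known CREB target in liver, had 8.39, 6.89 and 7.05 FPKM without and 21.8, 26.3 and 25.9 FPKM with forskolin (log2 fold change 1.60, SE 0.13, adjusted p = 5.26e-08), and Irs1 had 19.6, 19.7 and 19.5 FPKM without and 6.77, 8.68 and 9.04 FPKM with forskolin (log2 fold change -1.18, SE 0.09, adjusted p = 3.65e-08). Irs1 was the more abundant of the pair before and Irs2 after forskolin in every sample. The PI3-kinase subunit Pik3r1 (43.3 ± 3.25 to 22.3 ± 1.96 FPKM, log2 fold change -0.93) and the adaptor Grb14, which inhibits the insulin receptor (6.31 ± 0.0894 to 1.98 ± 0.120 FPKM, -1.30), fell. Of 28 insulin and IGF signaling genes tested, 4 rose (Irs2, Cblb, Socs2 and Socs3) and 13 fell, with a median of -0.17.

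The glucose genes were divided, with 15 of 39 up and 12 down as deposited, 19 up and 9 down with scaling between samples, and a median of 0.02. The ubiquitous transporter Slc2a1 rose (63.7 ± 2.38 to 106 ± 2.64 FPKM, 0.73) and the insulin-responsive transporter Slc2a4 fell (6.51 ± 0.703 to 3.62 ± 0.652 FPKM, -0.71). Hexokinase Hk2 rose (35.2 ± 2.22 to 61.7 ± 2.75 FPKM, 0.80). The lactate transporter Slc16a1 rose (58.2 ± 4.54 to 142 ± 5.72 FPKM, 1.27), and Pfkfb1 (3.46 ± 0.307 to 1.02 ± 0.241 FPKM, -1.14) and the pyruvate dehydrogenase kinase Pdk2 (39.7 ± 0.954 to 19.2 ± 1.28 FPKM, -1.01) fell.

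Mitochondrial energy genes moved little. Of 23 β-oxidation genes tested, 2 rose (Cpt1a among them) and 15 fell as deposited but 2 rose and 5 fell with scaling, none over 2-fold, with a median of -0.20. Of 52 subunits of oxidative phosphorylation, 5 rose and 5 fell as deposited, and 16 rose and none fell with scaling, none over 2-fold, with a median of -0.05. No direction is given for these lists.

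Chaperones of the endoplasmic reticulum rose at high levels. Hspa5, the chaperone BiP, had 632, 617 and 622 FPKM without and 1313, 1304 and 1207 FPKM with forskolin (log2 fold change 1.03, SE 0.07, adjusted p = 4.67e-09), and Hsp90b1 had 448, 454 and 464 FPKM without and 1063, 1091 and 1047 FPKM with forskolin (log2 fold change 1.23, SE 0.06, adjusted p = 6.2e-11). The groups did not overlap. Creld2, a cofactor secreted under stress of this compartment, was over 3-fold higher (61.2 ± 5.38 to 194 ± 16.1 FPKM, log2 fold change 1.65), and Hyou1 (36.8 ± 2.45 to 75.6 ± 1.66 FPKM, 1.02) and the stress factor Atf4 (331 ± 17.0 to 537 ± 45.7 FPKM, 0.69) rose. Ddit3, the pro-apoptotic factor CHOP, had 220.0 ± 14.1 to 185 ± 13.8 FPKM with no change past the test (adjusted p = 0.0838, but 0.0263 in the fit of the 6 NFIA-expressing samples alone). Of 36 genes of the unfolded protein and integrated stress responses tested, 20 rose and 4 fell (Phgdh, Vldlr, Nupr1 and Atf6), with a median of 0.33. In the fit of the 6 samples, 20 rose and 7 fell.

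Clock genes changed in both directions. Per2 (7.70 ± 0.277 to 22.8 ± 2.75 FPKM, log2 fold change 1.45), Per1 (31.7 ± 0.606 to 63.5 ± 4.17 FPKM, 0.98), Arntl (8.33 ± 0.589 to 18.6 ± 0.381 FPKM, 1.08) and the repressor Nfil3 (37.1 ± 0.886 to 95.0 ± 8.90 FPKM, 1.33) rose, and Per3 (9.95 ± 0.781 to 3.05 ± 0.617 FPKM, -1.44) and Tef (54.9 ± 0.780 to 31.1 ± 1.27 FPKM, -0.80) fell. Of 21 clock genes tested, 10 rose and 8 fell.

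**Figure D3:**
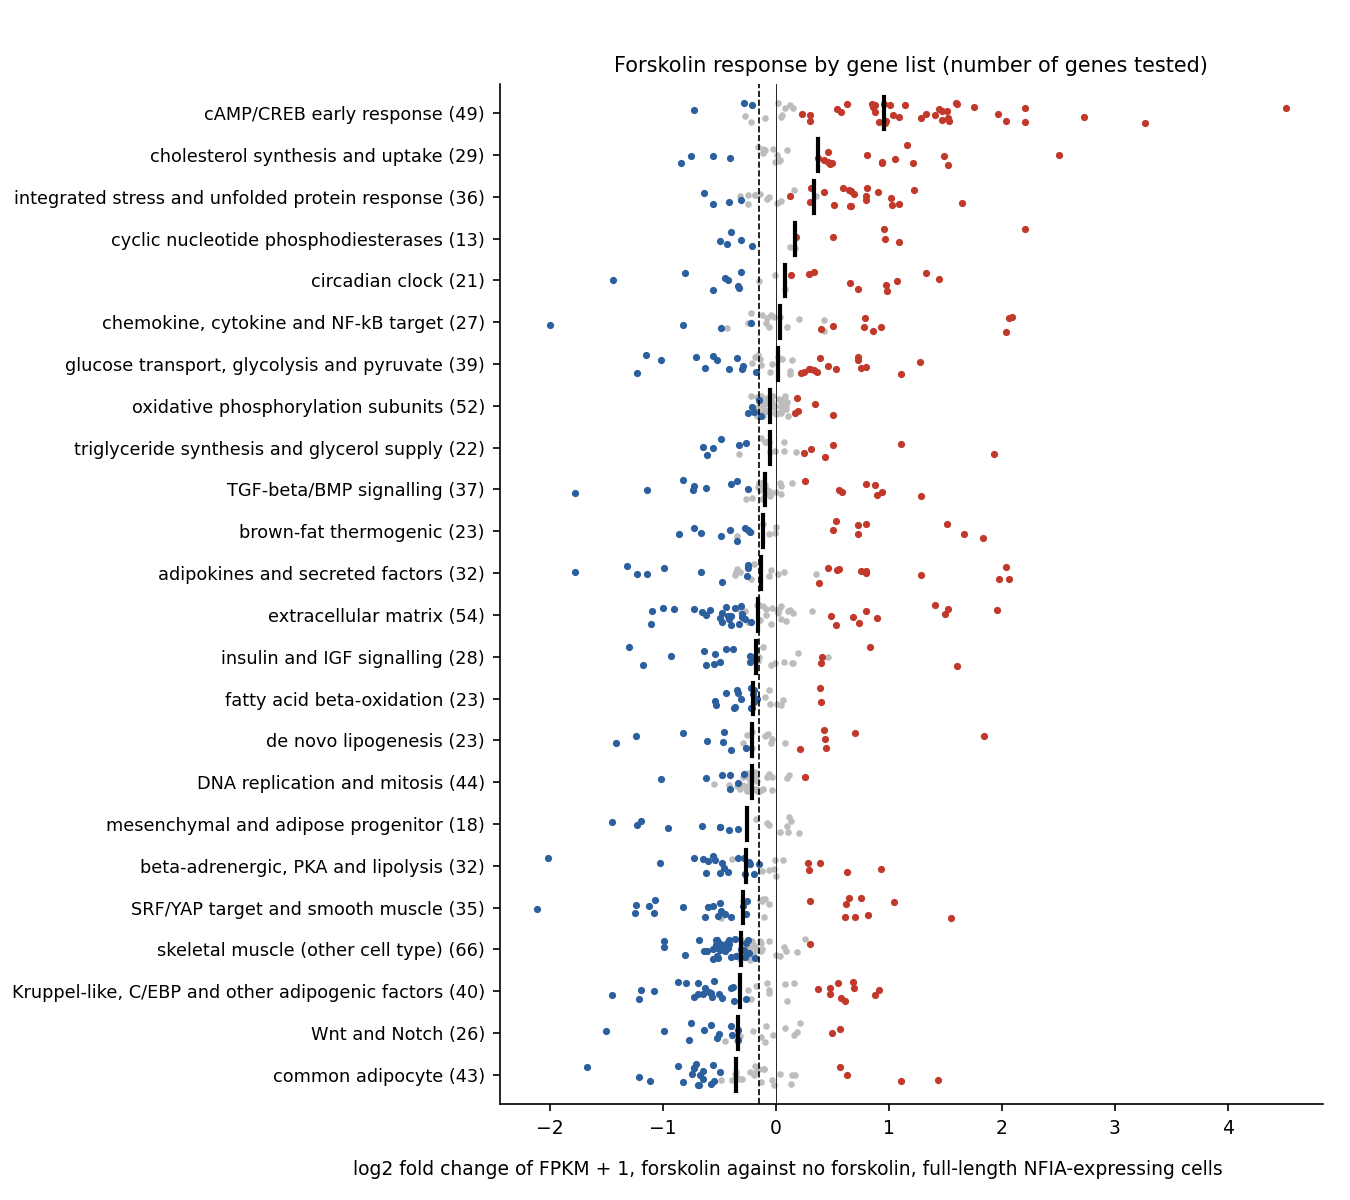
Log2 fold change of FPKM + 1 with forskolin in full-length NFIA-expressing cells for the members of each gene list, with the number of genes tested in parentheses. Red and blue points rose and fell at an adjusted p-value under 0.05, gray points did not pass it, black bars are the medians of the lists, and the dashed line is the median of all genes tested (-0.15). The cAMP early response genes have the highest median (0.96), followed by the cholesterol (0.38) and stress response genes (0.33), and the common adipocyte genes have the lowest (-0.35).

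Secreted factors were among the largest changes in both directions. Fgf10, an adipogenic growth factor, rose from 1.92 ± 0.294 to 10.4 ± 0.560 FPKM (log2 fold change 1.97, SE 0.13, adjusted p = 2.67e-09), the chemokine Cxcl14 from 8.44 ± 1.47 to 37.4 ± 3.37 FPKM (log2 fold change 2.03, SE 0.22, adjusted p = 9.59e-07), and the alarmin Il33 from 4.14 ± 1.18 to 20.7 ± 3.19 FPKM (log2 fold change 2.09, SE 0.15, adjusted p = 7.46e-09). Il6, a cytokine that adipocytes release on adrenergic stimulation, was nearly absent before, with 0.0916, 0.170 and 0.0767 FPKM without and 3.82, 3.81 and 3.34 FPKM with forskolin (log2 fold change 2.06, SE 0.16, adjusted p = 2.5e-08). Epiregulin Ereg rose from 1.10 ± 0.181 to 6.05 ± 0.391 FPKM (log2 fold change 1.75). The membrane chemokine fractalkine, Cx3cl1, fell from 13.8 ± 1.01 to 2.70 ± 0.216 FPKM (log2 fold change -2.0, SE 0.10, adjusted p = 9.91e-11). The activin subunits went opposite ways, as Inhba rose (1.57 ± 0.0260 to 5.28 ± 0.693 FPKM, 1.29) and Inhbb fell (7.42 ± 0.542 to 1.46 ± 0.0639 FPKM, -1.78). Bmp4 (18.3 ± 1.73 to 7.76 ± 0.954 FPKM, -1.14) and apelin, Apln (39.5 ± 1.68 to 15.2 ± 0.907 FPKM, -1.32), fell. Of 32 adipokines and secreted factors tested, 11 rose and 10 fell as deposited and 12 rose and 7 fell with scaling between samples, and of 27 chemokine, cytokine and NF-κB target genes 9 rose and 4 fell (Cx3cl1, Cxcl12, Il15 and Csf1). Genes of TGF-β and BMP signaling (8 of 37 up, 9 down, median -0.09) had a median near that of all genes, and those of Wnt and Notch signaling had a lower median (2 of 26 up, namely Sfrp1 and Notch3, and 12 down, but 4 up and 11 down with scaling between samples, median -0.33).

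Targets of SRF and YAP, factors that respond to actin tension, had a lower median than genes in general. Of 35 tested with smooth muscle genes, 9 rose and 18 fell, with a median of -0.29. Ctgf, a matricellular protein and standard YAP target, had 11.8, 12.2 and 14.5 FPKM without and 2.78, 2.05 and 1.81 FPKM with forskolin (log2 fold change -2.11, SE 0.11, adjusted p = 2.82e-10). Its close relative Cyr61 went the other way, with 30.3, 25.2 and 33.6 FPKM without and 65.5, 60.9 and 60.3 FPKM with forskolin (log2 fold change 1.05, SE 0.11, adjusted p = 6.27e-07). No samples overlapped in either gene. Myosin light chain Myl9 fell (22.1 ± 6.64 to 8.97 ± 4.02 FPKM, log2 fold change -1.24).

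The other large falls were of varied function. Akr1c14, a hydroxysteroid dehydrogenase, had 10.3, 11.9 and 10.8 FPKM without and 1.23, 1.36 and 1.48 FPKM with forskolin (log2 fold change -2.35, SE 0.11, adjusted p = 9.43e-11). Fam107a, an actin-associated protein, had 15, 18.4 and 15.8 FPKM without and 2.47, 2.31 and 2.90 FPKM with forskolin (log2 fold change -2.29, SE 0.09, adjusted p = 9.24e-12). Camkv, a kinase-like protein of vesicles, had 6.34, 7.14 and 5.69 FPKM without and 0.764, 0.622 and 0.607 FPKM with forskolin, and no test is given, as the untreated samples alone brought it over the filter. The lowest untreated sample was 6.97 times the highest treated sample for Akr1c14, 5.17 times for Fam107a and 7.44 times for Camkv. Mettl7a1, a methyltransferase-like protein of lipid droplets (27.7 ± 1.97 to 6.96 ± 0.480 FPKM, log2 fold change -1.85), Tmem158 (5.54 ± 1.06 to 0.914 ± 0.250 FPKM, -1.77), the rhomboid-like Rhbdl3 (13.0 ± 1.10 to 3.13 ± 0.329 FPKM, -1.76), the ubiquitin ligase subunit Asb2 (21.9 ± 2.56 to 6.06 ± 0.661 FPKM, -1.70), Lrrc75b (4.87 ± 0.689 to 0.804 ± 0.0233 FPKM, -1.70) and the kinase-dead ephrin receptor Ephb6 (26.4 ± 0.0528 to 7.59 ± 0.424 FPKM, -1.68) complete the list of the largest falls.

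Markers of other cell types gave the following values. Of 66 skeletal muscle genes tested, 1 rose (Mef2d) and 36 fell as deposited, and 2 rose and 21 fell with scaling between samples, none over 2-fold, with a median of -0.31. Myod1 (24.6 ± 5.73 to 20.5 ± 3.35 FPKM, adjusted p = 0.227) and Myog (199.6 ± 44.6 to 164 ± 21.8 FPKM, adjusted p = 0.188), the myogenic regulators, did not pass the test, while the myosin genes Myl4 (115 ± 19.5 to 89.4 ± 11.4 FPKM, log2 fold change -0.35, adjusted p = 0.014) and Myh8 (24.1 ± 5.03 to 16.3 ± 2.18 FPKM, -0.53, adjusted p = 0.0082) fell slightly. The call of Myl4 was lost with scaling (adjusted p = 0.127), without untreated replicate 1 (0.095) and without forskolin replicate 3 (0.088), and that of Myh8 without untreated replicate 1 (0.0559), whereas Myod1 passed the test without untreated replicate 2 (0.0274). Untreated replicate 1 had the most of the muscle transcripts, for example 370.1, 207 and 280.0 FPKM of cardiac actin Actc1 over the 3 untreated samples against 232, 189.9 and 165 FPKM after forskolin. Of 18 mesenchymal and adipose progenitor genes tested, none rose and 9 fell as deposited, and 2 rose and 9 fell with scaling between samples (median -0.25 and -0.13), led by Cd248 (105 ± 4.41 to 38 ± 3.06 FPKM, -1.45), Pdgfra (9.76 ± 0.440 to 3.58 ± 0.0684 FPKM, -1.23) and Pdgfrb (47.0 ± 3.01 to 20.01 ± 1.36 FPKM, -1.19). Ly6a (519 ± 50.02 to 560.0 ± 66.5 FPKM, adjusted p = 0.451) and Cd34 (107 ± 9.69 to 115 ± 0.832 FPKM, adjusted p = 0.466) did not pass the test. Of 12 blood cell genes only 3 were tested, of which 1 rose (Cd14), and none of the 11 endothelial genes reached the filter. Of 44 genes of DNA replication and mitosis, 1 rose (Pcna) and 7 fell (2 and 5 with scaling between samples). The part of these changes in the other results was not tested.

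The response was also compared with that of control cells, which lack the introduced factor, by an interaction term in the same model. The difference in response was over 3-fold in favor of NFIA-expressing cells for 48 genes (0.392%) and against them for 22 genes (0.18%). Against Δpro#3 mutant-expressing cells it was over 3-fold for 22 (0.18%) and 23 genes (0.188%). Both differences use the same NFIA-expressing samples, so they are given side by side and not set against each other.

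Of the 73 genes over 3-fold higher in NFIA-expressing cells, 46 rose in control cells, 8 of them over 3-fold, and none fell, where 7.05% of all genes rose, 0.245% rose over 3-fold and 13.5% fell. In Δpro#3 mutant-expressing cells 57 rose, 23 of them over 3-fold, where 11.9% of all genes rose, 0.457% rose over 3-fold and 23.9% fell. The median log2 fold change of the 73 genes was 2.07 in NFIA-expressing, 0.76 in control and 1.09 in Δpro#3 mutant-expressing cells. Since these genes were selected by their response in NFIA-expressing cells, their larger response there is a description. The 18 genes over 3-fold lower had medians of -1.77, -0.40 and -0.69 in the same order, with 1 of them (Ctgf) over 3-fold lower in control cells (0.147% of all genes) and 3 (Ctgf, Ephb6 and Mettl7a1) in Δpro#3 mutant-expressing cells (0.131%).

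**Figure D4:**
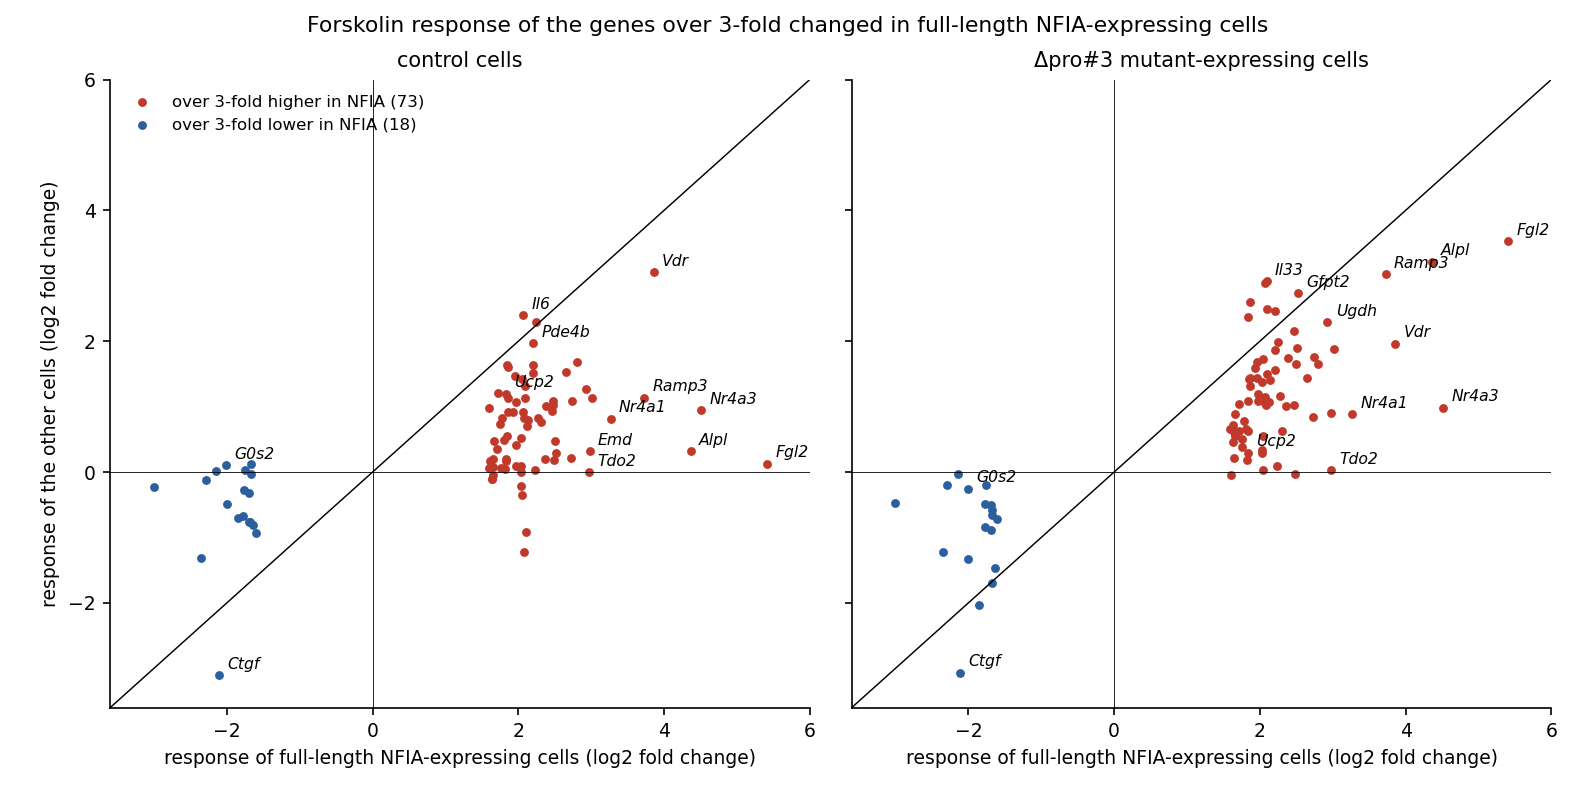
Log2 fold change with forskolin of the 73 genes over 3-fold higher (red) and the 18 genes over 3-fold lower (blue) in full-length NFIA-expressing cells on the horizontal axis, against control cells (left) and Δpro#3 mutant-expressing cells (right) on the vertical axis. The diagonal marks equal responses. Most points lie between the horizontal axis and the diagonal, with Fgl2, Alpl, Tdo2 and Emd near 0 in control cells, Vdr nearer to the diagonal there, and Ctgf on its far side in both panels.

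The largest difference from control cells among all genes tested was that of Fgl2. It went from 0.295 ± 0.150 to 0.412 ± 0.118 FPKM in control cells and from 1.72 ± 0.507 to 30.9 ± 8.45 FPKM in Δpro#3 mutant-expressing cells, so that its response in NFIA-expressing cells was larger by 5.28 on the log2 scale, SE 0.22, adjusted p = 1.45e-10 than in the former and by 1.88 on the log2 scale, SE 0.22, adjusted p = 2.24e-05 than in the latter. Alpl went from 0.0285 ± 0.0322 to 0.283 ± 0.128 FPKM in control cells (4.05 on the log2 scale, SE 0.14, adjusted p = 2.24e-11) and from 0.354 ± 0.0567 to 11.7 ± 2.06 FPKM in Δpro#3 mutant-expressing cells (1.15 on the log2 scale, SE 0.14, adjusted p = 3.73e-05). Control cells stayed under 1 FPKM for both genes. The larger response of Alpl than in the mutant rests on the added 1 FPKM, as the ratio of the mean FPKM with to without forskolin was higher in the mutant, whose untreated level was low. At these low levels the difference of Alpl from control cells did not pass the test in limma-voom on fragments (1.45 on the log2 scale, adjusted p = 0.177).

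The NR4A receptors responded more in NFIA-expressing cells than in both others. Nr4a3 went from 5.15 ± 0.434 to 10.9 ± 1.21 FPKM in control and from 2.02 ± 0.331 to 4.97 ± 0.631 FPKM in Δpro#3 mutant-expressing cells, with a difference of 3.56 on the log2 scale, SE 0.14, adjusted p = 6.15e-11 from the former and of 3.53 on the log2 scale, SE 0.14, adjusted p = 1.09e-10 from the latter. Its untreated level was lowest in NFIA-expressing cells and its treated level highest. Nr4a1 went from 15.5 ± 0.288 to 28.2 ± 3.29 FPKM in control (2.45 on the log2 scale, SE 0.12, adjusted p = 1.21e-09) and from 10.3 ± 0.791 to 19.9 ± 2.55 FPKM in Δpro#3 mutant-expressing cells (2.39 on the log2 scale, SE 0.12, adjusted p = 2.72e-09). Of the 49 early response genes, 30 had a larger and 4 a smaller response than in control cells (against 9.16% and 21.5% of all genes), and 24 and 3 than in Δpro#3 mutant-expressing cells (against 5.88% and 15.8%).

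Vdr responded in all 3 cell types, from 12.6 ± 1.13 to 112 ± 4.41 FPKM in control and from 17.1 ± 1.22 to 69.3 ± 1.98 FPKM in Δpro#3 mutant-expressing cells, with a difference of 0.80 on the log2 scale, SE 0.11, adjusted p = 5.51e-05 from control cells and of 1.89 on the log2 scale, SE 0.11, adjusted p = 1.3e-08 from the mutant cells. Tdo2 was listed at 0 in all 6 control samples and had at most 0.0414 FPKM in the mutant cells, so that it passed the filter through NFIA-expressing cells alone and no test of its difference is given. Emd, by contrast with these low genes, had similar untreated levels everywhere and rose from 39.5 ± 1.56 to 49.5 ± 0.669 FPKM in control (2.66 on the log2 scale, SE 0.08, adjusted p = 4.08e-12) and from 33.6 ± 1.48 to 63.6 ± 5.60 FPKM in Δpro#3 mutant-expressing cells (2.08 on the log2 scale, SE 0.08, adjusted p = 1.09e-10). Ppargc1a went from 1.08 ± 0.158 to 2.03 ± 0.235 FPKM in control (0.97 on the log2 scale, SE 0.14, adjusted p = 8.98e-05) and from 1.03 ± 0.0908 to 1.2 ± 0.284 FPKM in Δpro#3 mutant-expressing cells (1.40 on the log2 scale, SE 0.14, adjusted p = 4.24e-06).

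Some genes responded in the opposite direction in NFIA-expressing cells, or changed in other cells but not past the test in these. Cyr61 fell from 186 ± 25.6 to 37.4 ± 5.12 FPKM in control and from 102 ± 4.72 to 36.4 ± 0.508 FPKM in Δpro#3 mutant-expressing cells while it rose in NFIA-expressing cells, with differences of 3.33 on the log2 scale, SE 0.15, adjusted p = 3.3e-10 and 2.51 on the log2 scale, SE 0.15, adjusted p = 1.65e-08. The treated levels were nearer to each other than the untreated ones. Thbs1, a thrombospondin of the same list of SRF and YAP targets, fell from 96.0 ± 7.91 to 15.3 ± 1.27 FPKM in control cells and from 121 ± 22.8 to 21.5 ± 1.18 FPKM in the mutant cells but had 93.5 ± 0.676 to 86.9 ± 9.20 FPKM in NFIA-expressing cells (adjusted p = 0.395), with differences of 2.46 on the log2 scale, SE 0.15, adjusted p = 1.19e-08 and 2.32 on the log2 scale, SE 0.15, adjusted p = 2.99e-08. Of the 35 genes of this list, 15 responded more positively and 2 less than in control cells, against 9.16% and 21.5% of all genes. Notum, a secreted inhibitor of Wnt proteins, rose from 2.88 ± 0.271 to 20.9 ± 2.46 FPKM in control cells and fell from 4.94 ± 0.709 to 1.99 ± 0.206 FPKM in NFIA-expressing cells (-3.48 on the log2 scale, SE 0.22, adjusted p = 1.9e-08). Rgs2, a regulator of G-protein signaling, rose from 50.4 ± 7.26 to 99.8 ± 10.2 FPKM in control and from 12.3 ± 0.889 to 56.7 ± 5.63 FPKM in Δpro#3 mutant-expressing cells, and had 36.3 ± 3.20 to 31.1 ± 2.46 FPKM in NFIA-expressing cells (adjusted p = 0.0951), a difference of -2.33 on the log2 scale, SE 0.15, adjusted p = 2.99e-08 against the mutant.

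Other genes had a smaller response with full-length NFIA than with the mutant. Hdc, histidine decarboxylase, went from 0.770 ± 0.314 to 18.3 ± 2.46 FPKM in the mutant and from 0.513 ± 0.147 to 2.58 ± 0.213 FPKM in NFIA-expressing cells (-2.20 on the log2 scale, SE 0.16, adjusted p = 1.96e-07). S100a8, a calcium-binding protein of inflammation, went from 3.70 ± 1.72 to 51.8 ± 7.45 FPKM in the mutant and from 78.0 ± 11.7 to 126 ± 13.1 FPKM in NFIA-expressing cells (-2.86 on the log2 scale, SE 0.38, adjusted p = 6.49e-05), with the higher level both before and after forskolin in the latter. In NFIA-expressing cells its own response passed the test with all samples (adjusted p = 0.0404) but not without untreated replicate 1 (0.105), untreated replicate 3 (0.107), forskolin replicate 1 (0.106) or forskolin replicate 3 (0.0858). Il33 went from 44.3 ± 4.57 to 342 ± 30.1 FPKM in the mutant, against 4.14 ± 1.18 to 20.7 ± 3.19 FPKM in NFIA-expressing cells (-0.83 on the log2 scale, SE 0.21, adjusted p = 0.00881).

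Several genes that fell in NFIA-expressing cells were low in control cells already without forskolin. Fam107a had 0.512 ± 0.119 to 0.391 ± 0.0425 FPKM in control cells, and Camkv had at most 0.0259 FPKM in the 6 control samples. Neither could fall by much there, so no test of their differences is given. G0s2 had lower levels there too (50.7 ± 2.56 to 54.4 ± 2.94 FPKM in control cells, -2.11 on the log2 scale, SE 0.19, adjusted p = 7.78e-07) and so did Srebf1 (11.7 ± 0.928 to 12.9 ± 0.143 FPKM, -1.55 on the log2 scale, SE 0.11, adjusted p = 3.94e-08). Irs2 had 3.59 ± 0.359 to 3.79 ± 0.367 FPKM in control cells and did not respond there past the test (adjusted p = 0.808), a difference of 1.54 on the log2 scale, SE 0.19, adjusted p = 1.44e-05, whereas Irs1 fell in control cells as well (7.45 ± 0.612 to 3.54 ± 0.273 FPKM, log2 fold change -0.89, difference adjusted p = 0.121). The chaperone Hsp90b1 responded more than in control cells, with a difference of 1.22 on the log2 scale, SE 0.08, adjusted p = 2.18e-08. So did the cofactor Creld2, with a difference of 1.70 on the log2 scale, SE 0.14, adjusted p = 3.08e-07. Of the 36 stress response genes, 17 had a larger and 2 a smaller response than in control cells, against 9.16% and 21.5% of all genes.

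Small RNA genes appear among the changed genes and are uncertain. Of the 73 and 18 genes over 3-fold changed, 10 and 1 were under 300 nt long, and most of these lie within longer genes whose fragments may be counted there. Mir6392, the largest fall by log2 fold change (33.1 ± 8.11 to 3.66 ± 2.25 FPKM, -3.00), lies in Pnpla3, which fell itself. Mir1938 (0.964 ± 0.0851 to 10.0 ± 1.68 FPKM, 2.48) lies in Ifrd1, which rose by 1.14 (81.3 ± 1.97 to 180.3 ± 6.28 FPKM). Other hosts did not pass the test although their small RNAs were over 3-fold higher, namely Vmp1 of Mir21a (log2 fold change 0.13, adjusted p = 0.0605), Rpl3 of Snord43 (0.05, adjusted p = 0.59), Zfas1 of Snord12 (-0.15, adjusted p = 0.292) and 2410006H16Rik of Snord49b (-0.22, adjusted p = 0.25). Snord91a (1.74, 0 and 0 FPKM before and 3.41, 7.62 and 4.38 FPKM after forskolin) and Snord64 (2.27, 0 and 1.90 FPKM before and 0 FPKM in all 3 samples after forskolin) rest on few fragments. The difference of Mir1938 from the mutant cells did not pass the test with a pseudocount of 0.1 (adjusted p = 0.261) or in limma-voom on fragments (adjusted p = 0.0666). The predicted gene Gm6093 was at 0.0866 ± 0.126 to 0.0438 ± 0.0126 FPKM in NFIA-expressing cells and rose in Δpro#3 mutant-expressing cells (2 ± 0.114 to 15.1 ± 2.34 FPKM). It rested on 11 and 7 fragments in the former, so the difference of -2.47 on the log2 scale restates the rise in the mutant and no test is given. Leaving out all genes under 300 nt left 63 genes over 3-fold higher and 17 lower.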

How the data were processed

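Stranded polyA RNA-seq libraries had been aligned by the authors to mm9 with STAR version 2.5.3a, keeping uniquely mapped reads, and the deposited FPKM values are their counts per gene on the matched strand, divided by gene length and mapped fragments, with 1 table per sample and no scaling between samples. All values came back to whole fragments within 0.02 when multiplied by length and depth, which gave 9567769 to 25399502 fragments per sample at day 7. Of the 24825 genes, 26 with symbols turned into dates and 2 repeated symbols were read as deposited. Some genes are not reported here.

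Samples were grouped by their labels. limma (version 3.58.1, R 4.3.3) was fitted to log2(FPKM + 1) of all 18 samples at day 7, with a mean trend and the 6 groups as terms, over genes with a mean of 0.5 FPKM or more. p-values were adjusted by Benjamini-Hochberg over all genes tested, 2-sided. A threshold of 3-fold in FPKM + 1 was applied beside an adjusted p-value under 0.05. Values after ± are SD over 3 samples. On simulated data with 12245 genes, 83.2% of 4-fold and 97.1% of 8-fold changes of the response were recovered, and no unchanged gene was called. For the difference from control cells the shares were 81.1% and 97.1%, and 1 unchanged gene was called. The simulation gave all genes the same spread and held no outlying sample, so with the 3-fold threshold few unchanged genes could be called. It changed only genes well over the filter and does not cover genes with few FPKM.

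The genes named were the 15 largest rises and falls over 3-fold with at least 1 FPKM and no overlap, the 5 largest gains and losses in FPKM, the 5 largest differences from each other cell type in each direction, examples from gene lists, and genes central to the study. Gfpt1, Hilpda, Ifrd1, Tuba1c and Uap1 were added after their values were seen, as were members named because few of a list moved one way. The lists and the comparison itself were chosen with earlier results of these data known, so they are descriptions and not independent tests. Other settings tried were the pseudocount, scaling, filters, the samples in the fit, the variance trend, a replicate block, limma-voom on fragments, a 2-fold threshold, leaving out each sample and leaving out genes under 300 nt.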

Additional observations from a re-analysis of the deposited data

Results flagged for a closer look

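These genes are pointed out because the interaction term in limma found that their response to forskolin differed between the cell types. They come from the 5 largest differences in each direction from each of the other cell types, given on the log2 scale as the response of NFIA-expressing cells minus that of the others, and the adjusted p-values run from 2.24e-11 for Alpl to 0.00663 for Snord91a against control cells and from 1.09e-10 for Nr4a3 to 0.0112 for Mir1938 against the mutant. Against control cells, the response was larger for Fgl2 by 5.28, Alpl by 4.05, Nr4a3 by 3.56, Cyr61 by 3.33 and Snord91a by 3.30. It was smaller or more negative for Notum (-3.48) and Snord64 (-3.03). The difference of Alpl was lost in limma-voom on fragments (adjusted p = 0.177). In NFIA-expressing cells, Snord91a rested on 1 fragment without and 15 with forskolin, and Snord64 on 2 and 0. Against Δpro#3 mutant-expressing cells, the response was larger for Nr4a3 by 3.53, Mir1938 by 2.52, Cyr61 by 2.51 and Nr4a1 by 2.39, and smaller or more negative for S100a8 (-2.86), Rgs2 (-2.33) and Hdc (-2.20). The difference of Mir1938 was lost with a pseudocount of 0.1 (adjusted p = 0.261) and in limma-voom on fragments (0.0666). Gm6093 (-2.47 from the mutant) was near 0 in NFIA-expressing cells, so its difference restates the rise in the mutant and is a value with no test. Nr4a3 and Cyr61 stand in both comparisons, which share the NFIA-expressing samples. Another 4 genes among the largest differences were under 1 FPKM in the mean in both other cell types, with and without forskolin, and passed the filter through NFIA-expressing cells, so that their differences restate their own response there and are values with no test. They were Mir6392 (-2.77 from control and -2.54 from the mutant), Fam107a (-2.17 from control), Camkv (-2.17 from control) and Tdo2 (2.94 from the mutant).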

How the results depend on the processing

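The counts over 3-fold (73 higher and 18 lower for the response, 48 and 22 for the difference from control, 22 and 23 for that from Δpro#3 mutant-expressing cells) moved with the pseudocount, the model, the fold and the filter. A pseudocount of 0.1, which enlarges the folds of low genes by construction, gave 116 and 68, 77 and 64, and 45 and 48. limma-voom on fragments gave 148 and 64, 85 and 63, and 59 and 49. Asking for 2-fold gave 199 and 194, 153 and 178, and 81 and 104. Over genes with a mean of 5 FPKM or more, 11 were lower in the response, 27 higher in the difference from control, and 13 higher and 15 lower in that from the mutant. With scaling between samples the counts were 94 and 12, 56 and 20, and 27 and 23, and without genes under 300 nt, a setting chosen after the data were seen, 63 and 17, 38 and 19, and 19 and 19. Leaving out single samples gave 73 to 76 and 18 to 21 for the response, 44 to 54 and 21 to 29 for the difference from control, and 21 to 29 and 22 to 27 for that from the mutant. Same-numbered untreated and treated NFIA-expressing samples deviated from their group means with correlations of 0.151, 0.020 and -0.167, so the numbers were not taken as pairs (in Δpro#3 mutant-expressing cells, 0.358, 0.156 and 0.102). The replicate block gave 73 and 18, 49 and 24, and 22 and 23. Of the genes named, Ddit3 (adjusted p = 0.0119), Myog (0.0418), Pnpla2 (0.000283), Rgs2 (0.0417), Snord64 (0.0198) and Ucp3 (0.0208) passed the test for the response with the block but not without it, and S100a8 (0.0836) lost it. Single genes that changed sign lay near 0 in the settings concerned, namely Fabp4 (0.0391 with scaling, 0.0466 in limma-voom), Cidea (0.0171 with scaling), Thbs1 (0.0269 and 0.0313) and Gm6093 (0.1732 in limma-voom, -0.1085 to 0.0415 when single samples were left out), and the cause was not tested. Searching only for the full cAMP response element gave 1.79% of promoters in place of 20.8%. The number of samples, 3 per group, limits what can be detected, and genes below 1 FPKM rest on few fragments.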
